A study of Mus musculus with 6 samples.

Results

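This comparison asked what a Cre recombinase active in myeloid cells did to the immune infiltrate of a mouse melanoma when the floxed target was Nr3c1, the gene of the glucocorticoid receptor, and no checkpoint antibody was given. The members were cell barcodes from 2 pooled CITE-seq libraries, a method that counts messenger RNAs and antibody tags of the same single cell. A barcode was taken when its leading hashtag, the antibody tag that marks the mouse, had at least 10 counts and at least 70% of all hashtag counts and was listed by the submitters for a mouse given isotype antibody. It also needed at least 500 gene UMIs (unique molecular identifiers, 1 per captured messenger RNA) with at most 10% of them mitochondrial. This gave 15348 of the 20407 assigned cells of the series (75.2%), from 8 of 16 mice. The control group, called floxed here, was GRf/f: mice with floxed Nr3c1 alleles and no Cre, given isotype antibody. The other group, called LysM-Cre here, was GRf/f-LysMCre: the same floxed alleles plus a Cre recombinase under the Lyz2 promoter (LysM-Cre tg/wt), given isotype antibody. All mice were females of 8 weeks, described as C57BL/6J in the protocol and as C57BL/6JRccHsd under strain. Each received 250000 cells of YUMM1.7, a mouse melanoma line, under the skin, then 12.5 mg/kg antibody 2 times per week for 3 weeks from about day 7, and tumours were taken at day 28. No group carried Cre without a floxed allele, so effects of Cre itself and of receptor loss cannot be told apart.

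The glucocorticoid receptor is a nuclear receptor that is held by heat shock proteins in the cytoplasm, binds corticosterone in mice and then switches genes on or off. Genes it induces include Tsc22d3, which encodes the anti-inflammatory protein GILZ, and, in macrophages, the haemoglobin scavenger receptor Cd163. Lyz2 encodes the lysozyme of macrophages, monocytes and neutrophils, so a Lyz2-driven Cre is expected to act in those cells and to leave lymphocytes and fibroblasts with an intact receptor gene.

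Mice were told apart by their pool and, within a pool, by their hashtag, so the tags that carry the comparison are shown here as printed in the submitters' antibody table, with tags 8 and 9 used for floxed mice and 10 and 11 for LysM-Cre mice in each pool.
Hashtag 8: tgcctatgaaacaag
Hashtag 9: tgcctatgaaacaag
Hashtag 10: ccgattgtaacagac
Hashtag 11: gcttaccgaattaac
Tags 8 and 9 are printed with the same sequence, yet their counts were separate in the data. Among cells assigned to 1 of them, the other took 0.778% to 2.88% of the hashtag counts. Both mark floxed mice with isotype antibody, so a mix-up between them could move a cell between mice but not between genotypes. Floxed mice 1 and 2 and LysM-Cre mice 1 and 2 were in pool E5, and mice 3 and 4 of each genotype were in pool E6. The table gives mice no numbers, so these numbers are names only, and every set of 4 values below is in the order of mice 1 to 4.

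The hashtag rule found 1964, 2061, 3833 and 938 cells in the floxed group and 752, 2873, 958 and 1969 in the LysM-Cre group. A permutation of genotypes over the cell number, exact and two-sided, gave p = 0.514 (adjusted over 5 yield measures 0.686). Gene UMIs per mouse ranged from 7062757 to 41154747 and median UMIs per cell from 7053 to 10967. The median mitochondrial share was 2.52% ± 0.118 (SD, n = 4) in floxed and 2.71% ± 0.0907 in the LysM-Cre group (exact permutation p = 0.0857, adjusted 0.429). The pools shared 805 barcodes, 27 of them among assigned cells. Of 25 clusters, 19 carried the markers of 13 cell classes, named from rebuilt clusters and therefore meant as "-like". Ptprc, the gene of CD45, was detected in every mouse of every class tested, lowest in the fibroblast class. Another 6 clusters stayed unnamed, and 3 of them, clusters 4, 10 and 15, held enough cells to be tested and are called by number. Cluster 4 was led by H2-Ab1, H2-Aa and Ccr2, cluster 10 by the γδ receptor gene Trdc and by Klra1, and cluster 15 by the cycling genes Birc5 and Mki67. In 12 classes at least 3 mice per genotype had 20 cells or more, and LysM-Cre mouse 1 dropped out of cluster 15 with 14 cells.

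Counts were summed per mouse and class, and each class was fitted with edgeR's quasi-likelihood test with the pool as covariate. Levels below are CPM, the usual counts scaled to the summed gene UMIs of that mouse's cells in the class. A log2 change is the fitted difference of LysM-Cre from floxed mice with its standard error, and adjusted p-values are by Benjamini-Hochberg over all genes of the class. Many genes short of the threshold were named by a rule that asks for no overlap between mice, so their separation is no added evidence. An exact permutation of 4 against 4 mice gives such a separation p = 0.0286. In the classes with 8 mice 1.54% to 3.4% of all genes had no overlap. Across the 12 classes a single gene passed adjusted p 0.05: the heat shock gene Hspa1b, in regulatory T cells (1 of 7539 genes, 0.0133%) and in cluster 10 (1 of 5632 genes, 0.0178%), lower in LysM-Cre mice in both. The other 10 classes had 0 genes past the threshold (0%), and no class had a surface protein past it (0 of 67 to 87 antibodies). Monocytes had the largest share of genes at an unadjusted p under 0.05, 640 of 7918 (8.08%), and macrophages the smallest, 226 of 9456 (2.39%). That share was 2.83% in neutrophils, 3.16% in type 2 conventional dendritic cells (cDC2), 3.32% in cluster 15, 3.5% in cluster 10, 3.52% in CD8 T cells, 3.59% in cluster 4, 3.78% in NK cells, 4.07% in fibroblasts, 4.17% in regulatory T cells and 4.96% in CD4 T cells. With DESeq2 on the same sums, 34 monocyte genes and at most 3 genes in each other class passed. DESeq2 adjusts over the genes that its own filter on mean counts keeps, which can be fewer than those of the class. In monocytes its p-value for Rpl10a, 1.0e-06, became 0.000397, an adjustment over far fewer than the 7918 genes tested with edgeR. Adjusted p-values and counts of the 2 tools are therefore not on the same footing there.

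Nr3c1 itself, at chromosome 18:39410545-39519421 (GRCm38, identifier ENSMUSG00000024431), was the first check on the labels. In macrophages the floxed mice had 79.7, 65.6, 52.4 and 76.5 CPM and the LysM-Cre mice 43.0, 31.2, 39.1 and 79.5 CPM. LysM-Cre mice 1 to 3 lay below every floxed mouse, and LysM-Cre mouse 4 lay within the floxed range. The log2 change was -0.47 ± 0.27 (adjusted p = 1), and it was -0.82 (adjusted p = 0.841) without LysM-Cre mouse 4 and -0.24 without LysM-Cre mouse 2. In cluster 4 the levels were 50.1, 49.6, 53.1 and 75.0 CPM in floxed and 32.2, 26.7, 27.3 and 53.5 CPM in LysM-Cre mice. The groups overlapped again only through LysM-Cre mouse 4, with a log2 change of -0.64 ± 0.19 (adjusted p = 1), or -0.90 (adjusted p = 0.504) without that mouse. Monocytes had 76.8, 71.9, 64.0 and 64.8 CPM in floxed and 71.5, 37.9, 52.9 and 65.8 CPM in LysM-Cre mice (log2 change -0.36 ± 0.19). LysM-Cre mouse 2 was the low one there, and the change was -0.07 without it. Neutrophils had 123, 68.0, 97.0 and 159 CPM in floxed and 95.0, 55.8, 49.3 and 103 CPM in LysM-Cre mice (log2 change -0.56 ± 0.29), with wide overlap.

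In CD8 T cells, which do not use the Lyz2 promoter, Nr3c1 stood at 69.1, 74.5, 84.1 and 111 CPM in floxed and 87.4, 64.3, 91.2 and 98.2 CPM in LysM-Cre mice. Their ranges overlapped almost fully and the log2 change was 0.03 ± 0.14. Fibroblasts (-0.06 ± 0.11) and cluster 10 (-0.00 ± 0.20) were also near 0, whereas regulatory T cells had 0.19 ± 0.12, or 0.40 when the leading hashtag had to hold 90% of the hashtag counts. The remaining changes were -0.46 ± 0.30 in cluster 15, -0.45 ± 0.28 in cDC2, -0.33 ± 0.13 in NK cells (adjusted p = 1) and -0.22 ± 0.22 in CD4 T cells. Single mice moved them: cluster 15 had 0.077 without LysM-Cre mouse 2 and -0.97 without LysM-Cre mouse 4, and cDC2 had -0.08 without floxed mouse 2 and -0.71 without LysM-Cre mouse 4. CD4 T cells had -0.43 without LysM-Cre mouse 1 and -0.12 without LysM-Cre mouse 2. Nr3c1 was thus fitted lower in 10 of 12 classes, cluster 10 among them with a sign that changed with the processing, passed the threshold in none, and its 2 unadjusted p-values under 0.05 were in cluster 4 and NK cells. Reads were taken near the 3′ end, and the floxed exons are not named in the sources used here. A transcript that lacks the deleted part can still be counted and these levels do not measure the share of recombined cells.

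Each mouse also allows a comparison inside itself, chosen after the values were seen. The log2(CPM + 1) level of Nr3c1 in cluster 4 minus that in CD8 T cells of the same mouse averaged -0.56 ± 0.08 (SD, n = 4) over the floxed and -1.31 ± 0.35 over the LysM-Cre group. All 4 LysM-Cre mice were below all 4 floxed mice. Permuting the genotypes in an exact two-sided test gave p = 0.0286, the smallest that 4 against 4 mice can give, or 0.114 adjusted over the 4 myeloid classes compared. Macrophages had -0.30 ± 0.39 in floxed and -0.88 ± 0.40 in the LysM-Cre group (exact permutation p = 0.0857, adjusted 0.152). Neutrophils differed by -0.57 (exact permutation p = 0.114, adjusted 0.152) and monocytes by -0.33 (exact permutation p = 0.229).

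**Figure D1:**
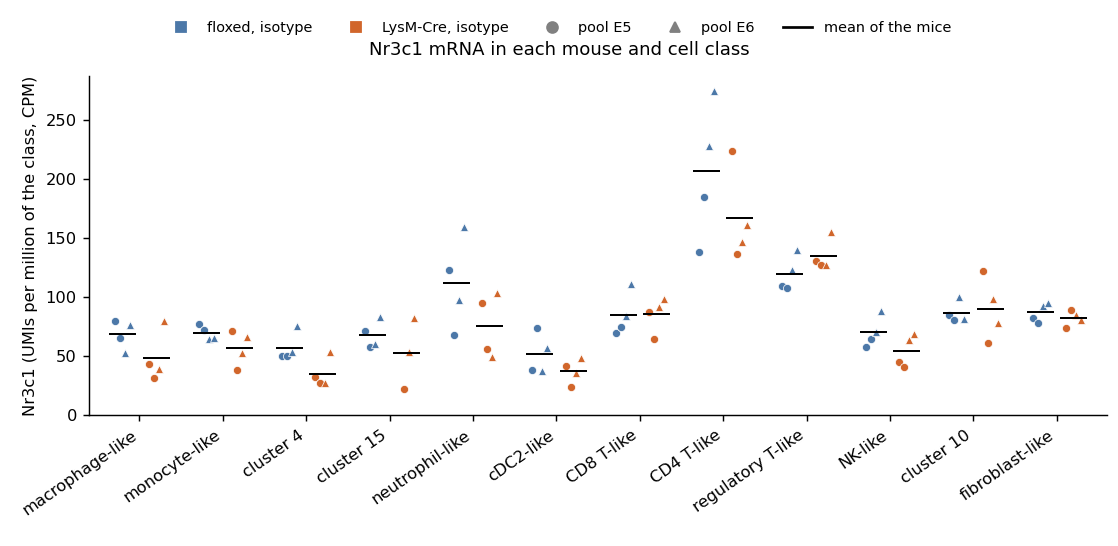
Nr3c1 level in CPM (vertical axis) of each isotype mouse in the 12 classes tested, with floxed mice in blue, LysM-Cre mice in orange, circles for pool E5, triangles for pool E6 and a black line at the mean of the mice. In macrophages and cluster 4 LysM-Cre mice 1 to 3 sit below the floxed mice and LysM-Cre mouse 4 within their range, while in CD8 T cells the genotypes overlap.

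The lysozyme genes lie side by side on chromosome 10 of GRCm38, Lyz2 at 117277541-117282272 and Lyz1 at 117287795-117292868. Lyz2 is the macrophage lysozyme whose promoter drives the Cre, and Lyz1 is its near copy, best known from the gut; their similar sequences leave some uncertainty over how reads were split between them. Lyz1 in cluster 4 was 3.17, 2.92, 6.51 and 7.43 CPM in floxed mice and 365, 54.5, 92.3 and 41.6 CPM in LysM-Cre mice. Every LysM-Cre mouse was above every floxed mouse, which held for 2.4% of the genes tested in cluster 4 in either direction. The log2 change was 4.32 ± 0.70 but missed the threshold (adjusted p = 0.452). LysM-Cre mouse 1 stood far above the other 3, and without it the change was 3.54 and passed (adjusted p = 0.00373), as it did without LysM-Cre mouse 2 (adjusted p = 0.0209). In macrophages Lyz1 was 2.64, 33.3, 12.0 and 15.1 CPM in floxed and 447, 40.03, 16.4 and 19.1 CPM in LysM-Cre mice. There the log2 change of 2.46 ± 0.97 (adjusted p = 1) rested on LysM-Cre mouse 1 and was 0.82 without it. In monocytes Lyz1 did not pass the count filter, with 4.90, 3.06, 4.70 and 3.31 CPM in floxed against 307, 49.6, 6.10016 and 1.67 CPM in LysM-Cre mice, the same mouse again the highest.

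Lyz2 did not separate the genotypes. Macrophages had 4477, 6421, 7110 and 12970 CPM in floxed and 4891, 2849, 2284 and 11100 CPM in LysM-Cre mice (log2 change -0.51 ± 0.39). Mouse 4 was the highest of its group in both genotypes, and without LysM-Cre mouse 4 the change was -1.03. The log2 change was -0.41 ± 0.28 in monocytes, -0.20 ± 0.28 in cluster 4 and 0.07 ± 0.37 in neutrophils, and none of the 12 classes reached even an unadjusted p of 0.05.

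Hspa1a and Hspa1b are neighbours on the minus strand of chromosome 17 that encode nearly the same inducible HSP70, a chaperone made within minutes of heat or other protein stress. Their copies are so alike that reads could be split between them by the authors' counting, and they are best read as a pair. The 250 bases before each start site are shown, 5′ to 3′ from RefSeq (GRCm38.p6), because they are the stress-responsive part of both genes. Capitals mark the letters that match GAANNTTC, a core of the heat shock factor motif searched on both strands, which begins 104 bases before the start site in each.
Hspa1a chr17:34972157-34972406 minus strand: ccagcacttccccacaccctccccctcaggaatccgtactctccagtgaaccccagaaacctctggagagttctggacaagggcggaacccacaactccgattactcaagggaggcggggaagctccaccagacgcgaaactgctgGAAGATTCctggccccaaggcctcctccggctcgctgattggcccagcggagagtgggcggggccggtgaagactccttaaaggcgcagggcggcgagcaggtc
Hspa1b chr17:34959239-34959488 minus strand: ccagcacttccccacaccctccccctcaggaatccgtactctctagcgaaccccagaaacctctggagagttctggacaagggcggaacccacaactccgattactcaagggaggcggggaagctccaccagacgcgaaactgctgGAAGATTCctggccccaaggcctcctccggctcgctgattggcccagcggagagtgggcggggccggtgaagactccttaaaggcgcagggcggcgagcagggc
These windows are identical at 247 of 250 positions. Counted from 1 at the left end, the differences from Hspa1a to Hspa1b are C44T, T47C and T249G. Of 32851 mouse promoters in the same table, 2199 (6.69%) hold the motif in their window, so the match describes the sequence and no more.

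Hspa1b in regulatory T cells, the CD4 T cells that restrain other immune cells and are marked by Foxp3, was 46.4, 30.8, 101 and 77.7 CPM in floxed mice and 14.8, 13.9, 13.5 and 23.5 CPM in LysM-Cre mice. All LysM-Cre mice were below all floxed mice, a separation seen for 2.56% of the genes of the class. The gene fell by 1.83 ± 0.25 on the log2 scale (adjusted p = 0.0218). The call was lost without LysM-Cre mouse 2, 3 or 4 or floxed mouse 1, 3 or 4 (adjusted p = 0.0703 to 0.188) and under 4 other settings given in the closing section, always with the same sign. The log2 change was -3.53 without cells of high score in Scrublet, a doublet caller. Macrophage markers were also counted in the regulatory T cell class, as given below, and their part in its Hspa1b values was not tested. In cluster 10 Hspa1b was 80.7, 119, 357 and 553 CPM in floxed and 82.3, 15.7, 126 and 140 CPM in LysM-Cre mice. The floxed mice of pool E6 were high and LysM-Cre mouse 2 was low, so the groups overlapped across pools but not within a pool except for LysM-Cre mouse 1. There it fell by 1.51 ± 0.26 on the log2 scale (adjusted p = 0.0329), a call lost without floxed mouse 2 or 4 or LysM-Cre mouse 3 or 4.

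The same direction was fitted in every class in which the pair could be tested. Hspa1a was lower in LysM-Cre mice in 12 of 12 classes, with log2 changes of -2.44 to -0.21, and Hspa1b in 11 of 11, from -2.49 to -0.60. In those classes 47.5% to 51.3% of all genes were fitted lower. Hspa1a reached an unadjusted p under 0.05 in 7 classes and Hspa1b in 9, whereas Hspa1a separated the mice without overlap in 1 class and Hspa1b in 4. The classes share the mice, so they are not independent repeats. CD8 T cells had Hspa1a at 42.8, 56.4, 206 and 182 CPM in floxed and 31.6, 5.16, 20.6 and 35.6 CPM in LysM-Cre mice. No values overlapped, which held for 2.77% of CD8 T cell genes, and the log2 change was -2.44 ± 0.34 (adjusted p = 0.0852). It passed the threshold without LysM-Cre mouse 1 (adjusted p = 8.32e-05). Single CD8 T clusters were also fitted with edgeR, a check added after the data were seen. Hspa1a had -2.67 in cluster 12 (adjusted p = 3.22e-06, 8 mice) and -2.47 in cluster 14 (adjusted p = 0.0229, 7 mice). Hspa1b had -1.87 (adjusted p = 0.0531) and -2.56 (adjusted p = 0.0129) there. In clusters 2, 6 and 7, of monocytes and macrophages, neither gene passed. NK cells had Hspa1b at 34.2, 73.5, 165 and 216 CPM in floxed and 32.4, 12.4, 10.7 and 33.9 CPM in LysM-Cre mice (log2 change -2.31 ± 0.37, adjusted p = 0.291). These groups did not overlap either, as for 2.48% of NK cell genes.

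Among myeloid classes, macrophage Hspa1b was 18.5, 46.7, 69.0 and 123 CPM in floxed and 12.8, 14.6, 86.2 and 19.5 CPM in LysM-Cre mice (log2 change -0.95 ± 0.48, adjusted p = 1). LysM-Cre mouse 3 stood above 3 floxed mice there. Cluster 4 had 54.0, 44.3, 33.7 and 71.6 CPM in floxed and 13.3, 6.62, 11.5 and 31.9 CPM in LysM-Cre mice, with no overlap and a log2 change of -1.67 ± 0.38 (adjusted p = 1). The Hspa1b change was -2.49 in cluster 15 and -1.42 in monocytes. Fibroblasts had -0.21 ± 0.26 for Hspa1a and -0.60 ± 0.37 for Hspa1b, with -0.07 for Hspa1b without floxed mouse 4. The dissociation stress list held the pair and 12 other genes, such as the immediate-early genes Fos, Jun and Egr1 and the chaperone gene Dnajb1. Of these 14 genes 9 were higher in macrophages (median log2 change 0.10) and 8 in cluster 4 (0.14). In cluster 10, by contrast, all 14 were lower (median -0.16, against 49% of all genes lower and a median of 0.01 over all genes). Tissue handling time of each mouse is not given in the labels, and its part in these values was not tested.

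**Figure D2:**
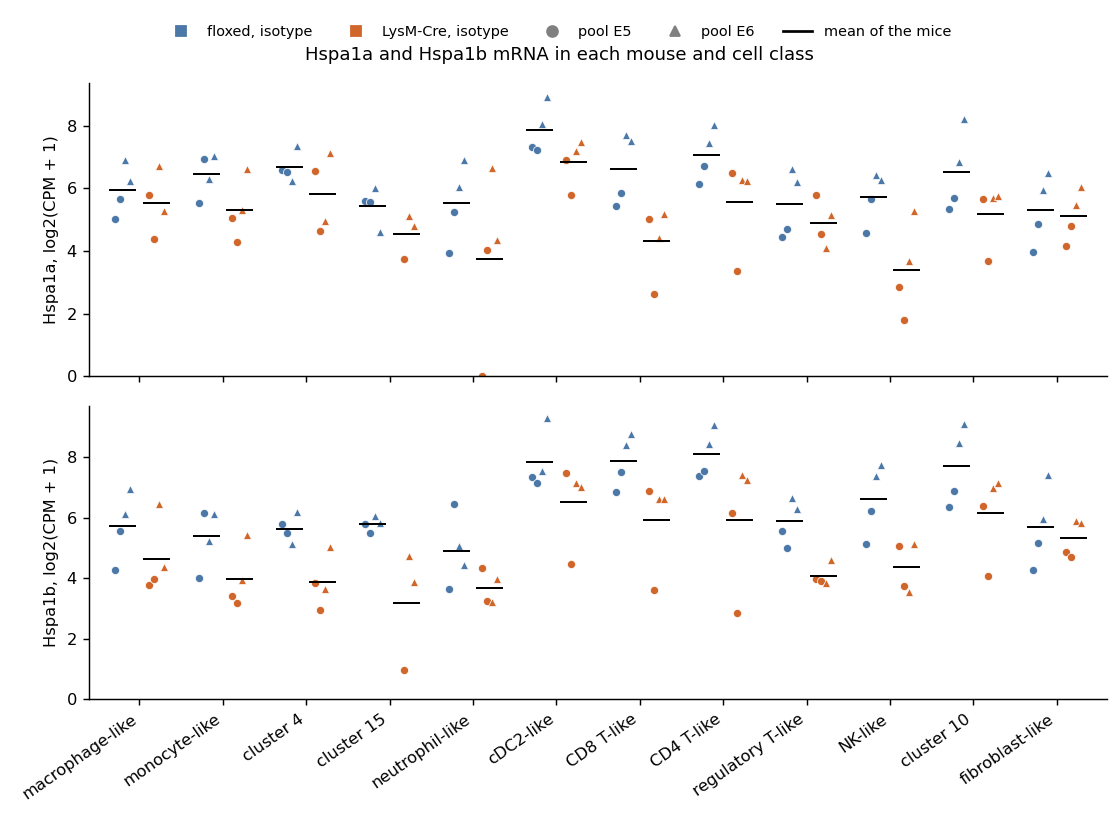
Levels of Hspa1a (upper panel) and Hspa1b (lower panel) as log2(CPM + 1) of each isotype mouse in the 12 classes, coloured as above, with black lines at the mean of the log values. LysM-Cre means lie below floxed means in each class shown, and the floxed mice of pool E6 (triangles) are often the highest.

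Of the 24 glucocorticoid response genes listed, 21 were tested in macrophages, where 13 were higher and 8 lower (median log2 change 0.02, against 0.00 over all genes and 49.2% lower). Monocytes had 12 higher and 8 lower (median 0.04, against 49.8% of all genes lower), cluster 4 had 13 and 7 (0.10, against 49.8%) and neutrophils 6 and 9 (-0.13, against 48.9%). Cluster 15 had 7 higher and 13 lower (median -0.29, against 51.3% of its genes lower). Its median was -0.11 without floxed mouse 3 or LysM-Cre mouse 2 and -0.05 when cells were assigned with HTODemux, another way to read the hashtags. No member passed the threshold in any class. Tsc22d3, the GILZ gene and a standard readout of receptor activity, had a change of 0.11 ± 0.21 in macrophages, 0.09 ± 0.16 in monocytes and 0.14 ± 0.17 in cluster 4 on the log2 scale. These 3 values fall outside the rule for naming genes and were chosen after they were seen. In neutrophils Tsc22d3 was 327, 241, 365 and 272 CPM in floxed and 291, 160, 226 and 238 CPM in LysM-Cre mice (log2 change -0.43 ± 0.23, adjusted p = 1), with overlap.

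Among lymphocytes, 15 of 18 receptor target genes were higher in LysM-Cre mice in CD8 T cells (median 0.18, against 50% of all genes lower) and 14 of 19 in regulatory T cells (0.21). NK cells had 11 of 19 higher (0.05) and CD4 T cells 7 of 14 (-0.06). Fibroblasts had 17 of 20 higher (0.36), cluster 10 had 10 of 14 (0.12) and cDC2 11 of 18 (0.14). Over all genes 47.5% to 50.7% were lower in these classes. The CD8 T cell median was 0.013 without LysM-Cre mouse 3, 0.05 without LysM-Cre mouse 2 or floxed mouse 2 and 0.31 without LysM-Cre mouse 4. The fibroblast median was 0.17 without LysM-Cre mouse 3 and 0.62 without LysM-Cre mouse 4, and that of regulatory T cells ranged from 0.15 to 0.31 without single mice. Tsc22d3 in regulatory T cells was 98.5, 102, 204 and 146 CPM in floxed and 153, 156, 377 and 286 CPM in LysM-Cre mice. Within each pool both LysM-Cre mice were above both floxed mice, and the log2 change was 0.75 ± 0.14 (adjusted p = 0.329), past the threshold with DESeq2 (adjusted p = 0.0289). Txnip, which binds thioredoxin and limits glucose uptake, was 277, 336, 318 and 272 CPM against 396, 339, 466 and 409 CPM in the same cells (log2 change 0.40 ± 0.12, adjusted p = 1). CD8 T cells had a Tsc22d3 change of 0.47 ± 0.28 and cluster 10 of 0.64 ± 0.28. In fibroblasts Tsc22d3 was 28.1, 25.2, 74.3 and 52.8 CPM in floxed and 32.6, 50.1, 246 and 57.8 CPM in LysM-Cre mice. LysM-Cre mouse 3 set that change, which was 1.003 ± 0.40 with it and 0.32 without it. Sgk1, a kinase gene induced by the receptor, had a log2 change of 0.33 ± 0.11 in fibroblasts (adjusted p = 0.974).

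The receptor's partners and steroid enzymes had list medians of -0.15 to 0.12 over the 12 classes. Of 12 listed genes (Nr3c1 and Nr3c2, the enzymes Hsd11b1 and Hsd11b2, chaperones and coregulators), 9 were tested in macrophages, 4 higher and 5 lower with a median of -0.01. In CD8 T cells 3 of 10 were higher and 7 lower (median -0.04). The member with the smallest p there was Hsp90aa1, the chaperone that holds the receptor ready for hormone, at 412, 530, 675 and 539 CPM in floxed and 345, 354, 443 and 457 CPM in LysM-Cre mice. These ranges overlapped and the log2 change was -0.41 ± 0.11 (adjusted p = 1).

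Tgm2 and Cd163 stood out among the receptor targets of myeloid cells. Tgm2, which encodes the crosslinking enzyme transglutaminase 2, was 316, 397, 247 and 203 CPM in monocytes of floxed mice and 198, 149, 150 and 127 CPM in those of LysM-Cre mice. All LysM-Cre mice were below all floxed mice, which held for 3.4% of monocyte genes, and the log2 change was -0.88 ± 0.14 (adjusted p = 0.216). In macrophages Tgm2 was 63.8, 104, 94.3 and 82.7 CPM against 47.6, 57.4, 61.3 and 55.0 CPM, again with no overlap (1.98% of macrophage genes), for a log2 change of -0.59 ± 0.16 (adjusted p = 1). Cluster 4 had -0.55 ± 0.17 (adjusted p = 1). The monocyte class was made of cluster 2, led by interferon genes such as Cxcl9 and Cxcl10, and cluster 7, led by Chil3, Hp and Prtn3. Fitted alone, a check added after the data were seen, cluster 7 gave a Tgm2 change of -1.39 (adjusted p = 0.0319, 7 mice) and cluster 2 of -0.50 (adjusted p = 0.916).

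Cd163 messenger RNA in macrophages was 5.28, 10.2, 61.3 and 22.2 CPM in floxed and 1.16, 1.54, 0.889 and 10.4 CPM in LysM-Cre mice. LysM-Cre mouse 4 was the only one within the floxed range, and the log2 change was -2.59 ± 0.55 (adjusted p = 1). DESeq2 gave an adjusted p of 0.0283. The CD163 protein on the same cells was 5217, 4647, 42424 and 26053 antibody CPM (CPM of antibody counts) in floxed and 4073, 654, 1942 and 5532 in LysM-Cre mice. Both floxed mice of pool E6 were high, and the log2 change was -2.32 ± 0.69 (adjusted p = 0.258 over the 87 antibodies). Without LysM-Cre mouse 1 it was -3.20 and passed (adjusted p = 0.00124). Cd163 belongs to a list of 14 resident-type macrophage genes, of which 9 of the 11 tested were lower (median -0.23, against 49.2% of all genes lower). Ccl8, a chemokine of that list and a leading gene of cluster 18, was 337, 1362, 1875 and 988 CPM against 274, 585, 310 and 443 CPM (log2 change -1.40 ± 0.42, adjusted p = 1). Macrophages of the mice also differed in make-up: cluster 18 held 271 of the 470 macrophages of LysM-Cre mouse 4 and 5 to 46 macrophages of each other mouse. As a share, it made up 10.96%, 24.7%, 19.7% and 37.9% of the macrophages of floxed mice. In LysM-Cre mice it made up 19.4%, 7.805%, 2.38% and 57.7%. The part of this make-up in the Cd163, CD163 protein and Ccl8 values was not tested.

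**Figure D3:**
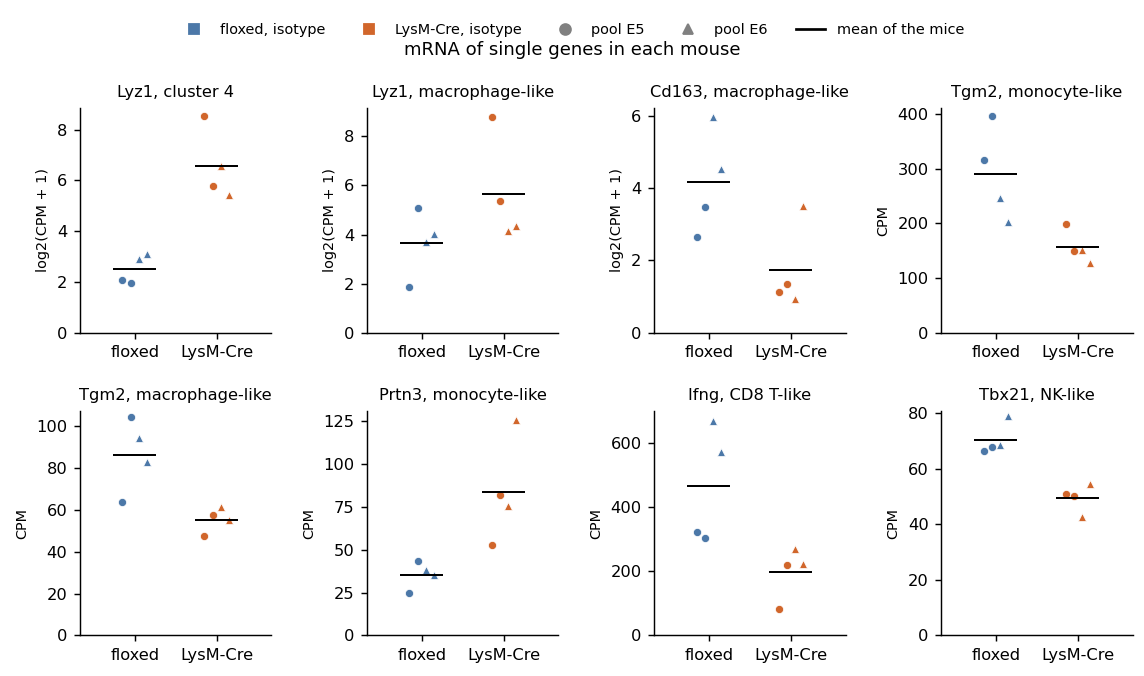
Levels of the isotype mice for 8 gene and class pairs, with floxed mice in blue, LysM-Cre mice in orange, circles for pool E5, triangles for pool E6 and a black line at the mean; the Lyz1 and Cd163 panels are on a log2(CPM + 1) scale and the others in CPM. LysM-Cre mouse 1 stands alone in both Lyz1 panels, and the genotypes do not overlap for Lyz1 in cluster 4, Tgm2, Prtn3, Ifng or Tbx21.

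Interferon response genes, which cells switch on when type I or type II interferon binds its receptor, were lower in most classes of LysM-Cre mice without any of them passing the threshold. In monocytes all 29 tested of the 30 listed genes were lower, 17 of them at an unadjusted p under 0.05. The median log2 change was -0.38, against 0.00 over all genes. Of all monocyte genes 49.8% were lower and 8.08% had such a p. Cluster 4 had 27 of 29 lower (median -0.46, against 49.8% of its genes lower) and cluster 15 had 28 of 29 (-0.51, against 51.3%). There were 28 of 29 in cDC2 (-0.44, against 50.3%) and 27 of 29 in regulatory T cells (-0.29, against 50.7%). Fibroblasts had 26 of 29 lower (-0.36, against 47.5%), cluster 10 had 25 of 27 (-0.30, against 49%) and NK cells 24 of 28 (-0.18, against 48.9%). CD8 T cells had 16 higher and 11 lower (0.04, against 50%) and CD4 T cells 10 higher and 14 lower (-0.08, against 49.2%). Macrophages had 11 and 18 (-0.05, against 49.2%) and neutrophils 12 and 14 (-0.03, against 48.9%). The cells of a mouse share 1 tumour, so these classes are not independent of each other.

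Cxcl10, which encodes a chemokine that draws T cells, was 2642, 1927, 1088 and 1633 CPM in monocytes of floxed mice and 1359, 1740, 600 and 749 CPM in those of LysM-Cre mice. Within each pool both LysM-Cre mice were below both floxed mice, and the log2 change was -0.77 ± 0.16 (adjusted p = 0.390 with edgeR and 0.00783 with DESeq2). The DESeq2 value was adjusted over the smaller set of genes that its filter kept. Isg15, an interferon-induced ubiquitin-like protein, had 2215, 1624, 1129 and 1552 CPM against 1380, 1700, 791 and 727 CPM (log2 change -0.55 ± 0.15, adjusted p = 0.535). Iigp1, an interferon-induced GTPase that attacks intracellular parasites, was 272, 220, 229 and 294 CPM against 163, 191, 128 and 119 CPM, with no overlap (log2 change -0.74 ± 0.16, adjusted p = 0.390). In cluster 4 the changes were -1.12 ± 0.29 for Iigp1, -0.94 ± 0.28 for Cxcl10 and -0.91 ± 0.20 for Ifit1 (adjusted p = 1 for each), and in cDC2 Rsad2 had -1.16 ± 0.31 (adjusted p = 1). Iigp1 had -0.39 ± 0.12 in regulatory T cells and -0.97 ± 0.25 in fibroblasts. When the leading hashtag had to hold 90% of the hashtag counts these were -0.14 and -0.28, and without cells of high Scrublet score regulatory T cells had -0.09. The list median of regulatory T cells was -0.13 and -0.10 under these settings. Without cells of high Scrublet score cluster 4 had -0.46 for Cxcl10 and -0.56 for Ifit1, and with HTODemux monocytes had -1.27 for Iigp1 and -1.23 for Cxcl10.

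For Cxcl10, Isg15 and Iigp1 in monocytes, LysM-Cre mouse 2 was the highest of its group and mice 3 and 4 were the lowest, and single mice moved the list medians. Without LysM-Cre mouse 4 the median was -0.22 in cluster 4, -0.21 in cDC2, -0.03 in cluster 15 and -0.16 in fibroblasts. Without LysM-Cre mouse 2 it was -0.74 in cDC2, -1.47 in cluster 15, -0.67 in cluster 10, -0.77 in fibroblasts, -0.76 in NK cells, -0.40 in CD4 T cells and -0.41 in macrophages. Without floxed mouse 3 the sign turned, to 0.09 in cluster 15 and 0.08 in NK cells. Without LysM-Cre mouse 1 the median was -0.10 in cluster 10, without floxed mouse 4 it was -0.24 in cDC2, and without floxed mouse 2 it was -0.59 in fibroblasts and -0.29 in NK cells. NK cells had -0.02 without LysM-Cre mouse 4. The medians of CD4 T cells, CD8 T cells, macrophages and neutrophils each changed sign with 1 mouse or another left out. The monocyte median ranged from -0.52 to -0.25 when single mice were left out. Within monocytes the list median was -0.12 in cluster 2 (8 mice, 8 higher, 21 lower) and -0.78 in cluster 7 (7 mice, 0 higher, 25 lower). LysM-Cre mouse 3, with 12 cells of cluster 7, was not in that fit. The 2 medians thus rest on unlike mice and on unlike numbers of list genes. Of all genes tested 49.7% were lower in cluster 2 and 50.1% in cluster 7. Cluster 2 made up 77.9%, 66.9%, 54.3% and 73.1% of the monocytes of floxed mice and 66.3%, 69.9%, 69.2% and 29.2% of those of LysM-Cre mice; the part of this make-up in the class value was not tested.

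**Figure D4:**
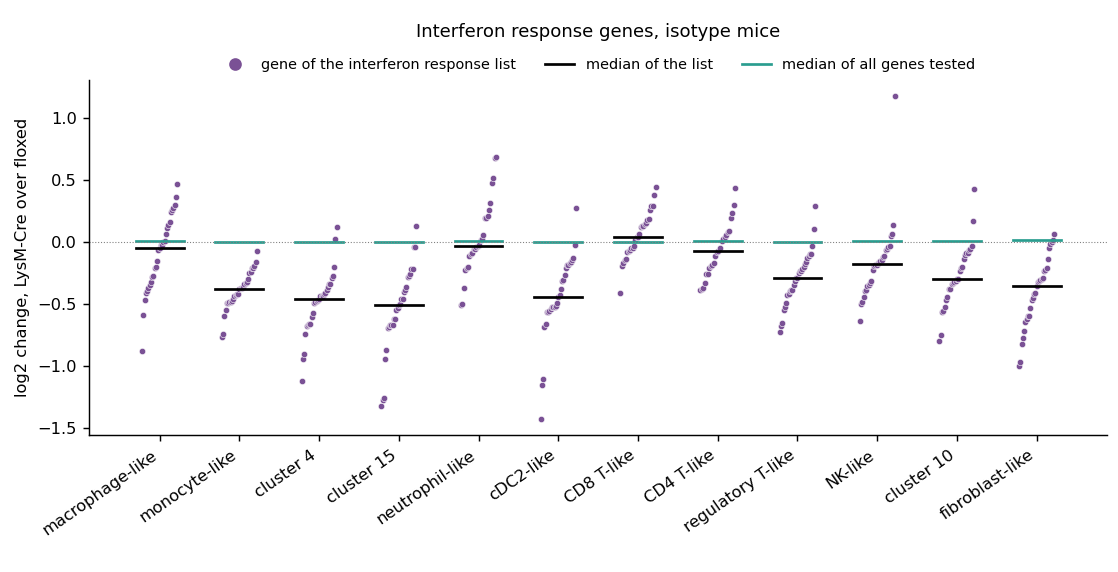
Fitted log2 change (LysM-Cre against floxed, vertical axis) of each tested interferon response gene in the 12 classes, as 1 point per gene, with the list median in black and the median of all genes tested in green. Monocytes, with a median of -0.38, have every point below 0, whereas the points of CD8 T cells, macrophages and neutrophils lie on both sides of it.

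Monocytes had the most other genes near the threshold. Prtn3, the serine protease proteinase 3 of immature myeloid cells and a leading gene of cluster 7, was 24.5, 43.6, 38.1 and 35.05 CPM in floxed and 52.4, 81.8, 75.2 and 126 CPM in LysM-Cre mice. Every LysM-Cre mouse was higher, with a log2 change of 1.33 ± 0.20 (adjusted p = 0.216), and without floxed mouse 2 it was 1.51 and passed. Cd300a, an inhibitory receptor, was 108, 110, 94.3 and 116 CPM against 162, 149, 153 and 161 CPM (log2 change 0.56 ± 0.11, adjusted p = 0.390). Klf2, a transcription factor of quiescent cells, was 201, 335, 411 and 413 CPM against 421, 448, 545 and 858 CPM (0.75 ± 0.15, adjusted p = 0.390, or 0.00315 with DESeq2). Flt1, a receptor of vascular endothelial growth factor, was 18.8, 59.7, 36.6 and 26.5 CPM against 2.38, 10.6, 10.2 and 12.5 CPM (-1.79 ± 0.38, adjusted p = 0.390). Flt1 is also 1 of 8 listed endothelial markers, of which Cldn5 and Emcn were at 0 in every mouse. Summed over that list, Flt1 included, monocytes had 57.997 to 83.4 CPM in floxed and 29.98 to 56.9 CPM in LysM-Cre mice. These sums did not overlap (exact permutation p = 0.0286, unadjusted), and of 3 members tested 2 were lower and 1 higher (median -0.72). The sums were also lower without overlap in cluster 4 and neutrophils, whereas they overlapped in the other classes. The part of endothelial RNA in the Flt1 values was not tested. The 34 genes called by DESeq2 were mostly ribosomal protein genes, such as Rps15a (log2 change 0.21) and Rpsa (0.38).

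Macrophages and cluster 4 gave fewer such genes. Itgal, the alpha chain of the adhesion molecule LFA-1, was 45.8, 58.7, 53.9 and 44.5 CPM in macrophages of floxed and 29.1, 36.2, 30.7 and 29.5 CPM in those of LysM-Cre mice (log2 change -0.64 ± 0.14, adjusted p = 1). Acp5, the acid phosphatase of osteoclasts and some macrophages and a leading gene of cluster 6, was 268, 214, 306 and 144 CPM against 684, 318, 803 and 318 CPM (1.24 ± 0.36, adjusted p = 1). Slc9b2, a sodium and proton exchanger, was 0.440, 4.62, 5.04 and 4.45 CPM against 49.97, 9.62, 16.9 and 16.1 CPM (2.55 ± 0.63, adjusted p = 1). All 10 genes of the monocyte list were lower in macrophages (median -0.59, against 49.2% of all genes lower). Among them Ly6c2, which marks newly arrived monocytes, was 148, 114, 189 and 105 CPM against 65.1, 127, 19.9978 and 29.6 CPM (-1.41 ± 0.42, adjusted p = 1). LysM-Cre mouse 2 was within the floxed range for it. In cluster 4 Etnk1 (-0.56 ± 0.13) and the histone gene H2afv (0.45 ± 0.11) separated the mice without overlap (adjusted p = 1 for both). Summed red cell markers stood at 1567 to 17904 CPM in macrophages of floxed and 103 to 16703 CPM in those of LysM-Cre mice, and all 6 were fitted lower (median -1.07). In cluster 4 all 4 tested were lower (median -3.07), with sums of 8923, 31.6, 7617 and 1698 CPM against 32.2, 246, 868 and 2348 CPM. All 3 tested were lower in monocytes (-2.89) and in neutrophils (-2.16), whereas all 4 were higher in CD8 T cells (2.64), where LysM-Cre mouse 2 had 2190 CPM and the other mice 35.2 to 143 CPM. Each red cell gene tested in these 4 classes had an unadjusted p under 0.05, as did 2.83% to 8.08% of all genes there. No red cell gene passed the threshold, the sums overlapped between genotypes, and their part in the other values was not tested.

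Neutrophils, the class with the fewest genes tested (3496), had 54 genes without overlap (1.54%). Hist1h1c, a linker histone, was 266, 253, 197 and 138 CPM in floxed and 285, 350, 435 and 365 CPM in LysM-Cre mice (log2 change 0.80 ± 0.23, adjusted p = 1). Map3k8, the inflammatory kinase TPL2, had 0.63 ± 0.22 and Abcg1, a cholesterol exporter, -0.69 ± 0.23. Of the 11 hypoxia and glycolysis genes tested, 10 were higher (median 0.45, against 0.01 over all genes), 4 at an unadjusted p under 0.05. Of all neutrophil genes 48.9% were lower and 2.83% had such a p. Hilpda, which coats lipid droplets when oxygen is short, was 77.3, 30.9, 54.2 and 123 CPM against 69.6, 115, 333 and 115 CPM, a change of 1.23 ± 0.41 that was 0.73 without LysM-Cre mouse 3. Ldha, lactate dehydrogenase A, was 301, 402, 394 and 251 CPM against 443, 423, 579 and 466 CPM (0.53 ± 0.21, adjusted p = 1), with no overlap.

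CD8 T cells, the killer T cells, had Ifng as their leading effector difference. Ifng, the gene of interferon gamma, was 323, 305, 671 and 571 CPM in floxed and 81.4, 220, 270 and 223 CPM in LysM-Cre mice. Every LysM-Cre mouse was lower and the log2 change was -1.14 ± 0.22 (adjusted p = 0.524). DESeq2 called it (adjusted p = 0.00779). Fitted alone with edgeR the change was -0.50 in the largest CD8 cluster, cluster 12 (adjusted p = 0.996). It was -0.80 in cluster 14 (adjusted p = 0.989, 7 mice). TIM3 protein, an exhaustion receptor, was 3030, 3709, 3237 and 3608 antibody CPM against 1450, 2146, 2398 and 1550 (log2 change -0.81 ± 0.21, adjusted p = 0.162), and its gene Havcr2 was 80.2, 83.2, 104 and 103 CPM against 34.7, 71.8, 77.8 and 37.4 CPM (-0.65 ± 0.23, adjusted p = 1). Neither overlapped between genotypes, as for 2.77% of CD8 T cell genes. The protein was named by a rule that asks for no overlap, and the share of antibodies without overlap was not counted. Of 9 exhaustion genes tested 8 were lower (median -0.39), of 9 naive and memory genes 8 were higher (0.40), and all 15 cell cycle genes were lower (-0.26). Of all CD8 T cell genes 50% were lower, and no gene of these lists passed the threshold. Ifng is a leading gene of cluster 14, which held 96, 152, 99 and 37 CD8 T cells of floxed mice and 12, 77, 74 and 27 of LysM-Cre mice. That was 38.7%, 40.6%, 34.1% and 35.9% of the CD8 T cells of floxed mice. In LysM-Cre mice it was 9.52%, 28.7%, 47.7% and 18.1%, so LysM-Cre mouse 3 had the largest share of all. The calcium kinase inhibitor Camk2n1 (-0.97 ± 0.18), the Notch cofactor Rbpj (-0.61 ± 0.13) and the repressor Klf3 (0.72 ± 0.21) also separated the mice. The antibody against SiglecF, a receptor of eosinophils and some macrophages, gave 844, 1046, 705 and 1672 antibody CPM against 199, 305, 544 and 205 (-1.71 ± 0.35, adjusted p = 0.0818), with a change of -1.49 ± 0.32 on macrophages (adjusted p = 0.107). On CD8 T cells it passed without floxed mouse 3 or LysM-Cre mouse 3, and it was -0.95 (adjusted p = 0.558) at a hashtag share of 90%.

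NK cells, innate killer cells, had Tbx21, the transcription factor T-bet, at 66.5, 67.9, 68.7 and 79.0 CPM in floxed and 50.9, 50.2, 42.8 and 54.4 CPM in LysM-Cre mice. The ranges did not overlap and the log2 change was -0.45 ± 0.12 (adjusted p = 1). The transferrin receptor Tfrc was 35.5, 26.1, 27.9 and 34.9 CPM against 69.5, 36.6, 58.8 and 62.9 CPM (0.87 ± 0.21, adjusted p = 1). All 9 cytotoxic effector genes tested were lower (median -0.20, against 48.9% of all NK cell genes lower). Among them Gzma, granzyme A, was 2578, 2826, 2896 and 3369 CPM against 1482, 3326, 1557 and 1023 CPM (-0.70 ± 0.25, adjusted p = 1). LysM-Cre mouse 2 was the exception, and without it 17 NK cell genes passed in place of 0, with Gzma at -1.07 (adjusted p = 0.00496) and Rrm2 at 1.75. Of 15 cell cycle genes 12 were higher (median 0.35), 7 at an unadjusted p under 0.05, against 3.78% of all NK cell genes. Rrm2, a ribonucleotide reductase subunit of dividing cells, was 45.8, 34.4, 6.87 and 6.97 CPM against 94.2, 37.8, 40.6 and 39.3 CPM (1.20 ± 0.36, adjusted p = 1).

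Regulatory T cells went the other way for the cell cycle, with 13 of 15 genes lower (median -0.36), 6 at an unadjusted p under 0.05. Of all regulatory T cell genes 50.7% were lower and 4.17% had such a p. Mki67, which marks dividing cells, was 192, 137, 154 and 119 CPM against 128, 96.2, 80.9 and 63.6 CPM (log2 change -0.76 ± 0.17, adjusted p = 0.704). Fabp5, a fatty acid carrier, was 219, 226, 376 and 254 CPM against 126, 183, 129 and 219 CPM (-0.67 ± 0.17, adjusted p = 1). The transcription factor Maf (-0.33 ± 0.09) and the cold-induced RNA-binding protein Cirbp (0.67 ± 0.19) separated the mice as well. All 7 MHC class II genes tested were higher (median 0.62), 6 at an unadjusted p under 0.05, against the same 4.17% of all genes. H2-Ab1 was 780, 1723, 1829 and 713 CPM against 2287, 1755, 2485 and 1608 CPM (0.68 ± 0.25) and Ciita, the activator of that gene group, 24.3, 30.8, 53.2 and 29.7 CPM against 59.1, 52.3, 59.3 and 53.9 CPM (0.62 ± 0.21, adjusted p = 1 for both). With HTODemux the Ciita change was 0.11. The I-A/I-E antibody, which binds MHC class II, was 27053, 40006, 37305 and 28432 antibody CPM against 40204, 42307, 53361 and 48441 (0.46 ± 0.15, adjusted p = 0.416), and CCR2 protein had -0.76 ± 0.23 (adjusted p = 0.431). The summed macrophage markers of this class were 7055 to 13501 CPM in floxed and 8163 to 13735 CPM in LysM-Cre mice. In CD4 T cells they were 1386 to 2582 CPM and 1167 to 2724 CPM. Their part in the MHC class II values and in the other values of regulatory T cells was not tested.

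The remaining classes gave single genes. In cluster 10 Gzmc, granzyme C, was 133, 184, 170 and 99.6 CPM in floxed and 188, 355, 264 and 566 CPM in LysM-Cre mice (log2 change 1.20 ± 0.24, adjusted p = 0.131), and the adhesion receptor Icam1 had -0.79 ± 0.20 (adjusted p = 1). Mice did not overlap for 2.1% of its genes. In CD4 T cells Cd274, the gene of PD-L1, was 61.5, 59.4, 69.1 and 79.4 CPM against 23.3, 38.4, 23.6 and 22.6 CPM (-1.13 ± 0.28, adjusted p = 0.598). The iron store gene Fth1 was 2402, 2175, 2787 and 2669 CPM against 1587, 1936, 1539 and 1848 CPM (-0.48 ± 0.12, adjusted p = 0.598), and 3.14% of CD4 T cell genes had no overlap. Without LysM-Cre mouse 2 CD4 T cells had 30 genes past the threshold in place of 0, most of them ribosomal protein genes, and cluster 10 had 7 in place of 1. In cDC2 Tcf4, a transcription factor of dendritic cells, was 123, 123, 101 and 88.4 CPM against 185, 171, 164 and 139 CPM (0.60 ± 0.14, adjusted p = 1), with 2.02% of genes not overlapping, and CD14 protein had 0.63 ± 0.21 (adjusted p = 0.982). In cluster 15, where 4 floxed and 3 LysM-Cre mice gave 4.71% of genes without overlap, the histone gene Hist1h2bc had a log2 change of 0.89 ± 0.20 and the cell fusion gene Ocstamp of -1.81 ± 0.48 (adjusted p = 1 for both).

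Fibroblasts, a class named by matrix genes such as Col1a2 and Col3a1 that the CD45 sort should have removed, expressed Nr3c1 at 73.6 to 94.8 CPM. Whether the class holds YUMM1.7 tumour cells was not tested. Its summed melanoma markers were 8.32 to 17.6 CPM in floxed and 9.22 to 12.7 CPM in LysM-Cre mice. In this class 2.16% of genes had no overlap. Basp1, a membrane protein of growing cells, was 28.4, 13.7, 22.8 and 21.7 CPM in floxed and 34.0, 41.7, 62.7 and 47.9 CPM in LysM-Cre mice (log2 change 1.13 ± 0.23, adjusted p = 0.974), and Nav3 had -0.46 ± 0.10. The CD169 antibody, against a macrophage lectin, gave 1496, 2431, 956 and 1920 antibody CPM against 914, 934, 486 and 680 (-1.28 ± 0.32, adjusted p = 0.178). All 13 T and NK cell markers tested were higher in this class (median 0.82, against 47.5% of all genes lower). Their sums were 54.7 to 198 CPM in floxed and 146 to 548 CPM in LysM-Cre mice, and their part in the other values of the class was not tested.

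None of 19 exact two-sided permutation tests of class shares between genotypes passed the threshold (adjusted p = 1 for each). With 4 against 4 mice p cannot go below 0.0286, so a single class could not pass after adjustment over 19. These tests therefore cannot show that the make-up of the infiltrate was alike. Macrophages were 11.2%, 8.25%, 6.105% and 10.98% of the cells of floxed mice and 8.91%, 7.14%, 21.9% and 23.9% of those of LysM-Cre mice. Both LysM-Cre mice of pool E6 were high and both of pool E5 were not (means 9.12% ± 2.41 and 15.5% ± 8.65, exact permutation p = 0.314). Monocytes were 13.1%, 6.45%, 19.6% and 15.5% in floxed and 10.6%, 26.8%, 4.07% and 4.88% in the LysM-Cre group (exact two-sided p = 0.743). Cluster 4 was 12.8% ± 3.54 in floxed and 10.1% ± 2.76 in the LysM-Cre group (exact permutation p = 0.257), and neutrophils were 8.17% ± 8.18 and 7.70% ± 3.97. CD8 T cells were 12.3% ± 4.41 and 12.5% ± 4.69, and fibroblasts 7.67% ± 2.68 and 5.86% ± 2.76. The spread between mice of 1 genotype was larger than the difference of means for each of these classes except macrophages in floxed mice. Shares of sorted cells cannot show whether a class changed in number or others did.

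**Figure D5:**
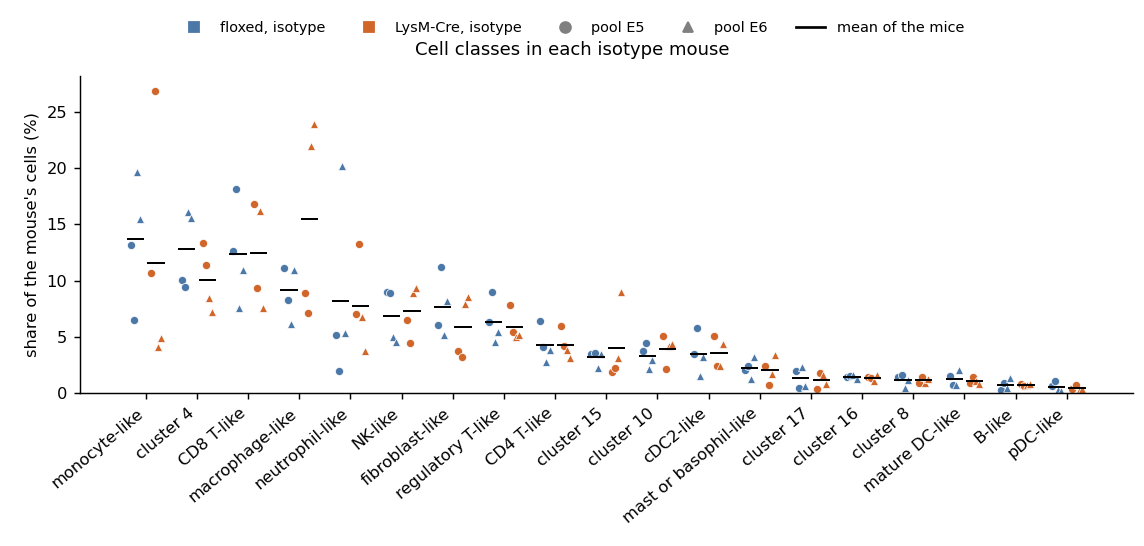
Share of each cell class in percent of the assigned cells of a mouse, for the 4 floxed (blue) and 4 LysM-Cre (orange) isotype mice, circles for pool E5 and triangles for pool E6, with a black line at the mean. The macrophage share of LysM-Cre mice splits by pool, at 7.14% and 8.91% in E5 and 21.9% and 23.9% in E6.

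The most similar comparison in the series is the same genotype contrast in mice given anti-PD-1, which blocks an inhibitory receptor of T cells. It shares no mice with the isotype contrast, and 5059 cells were assigned to it. The difference of the genotype effects was tested as an interaction in the 7 classes with enough cells, over 3093 to 9059 genes each, and 0 genes passed in any of them (0%). Hspa1a was lower in LysM-Cre mice in 7 of 7 of those classes under anti-PD-1 (log2 change -3.49 to -1.44) and Hspa1b in 6 of 6 (-3.52 to -1.11). Nr3c1 was lower in 6 of 7, with -1.34 in macrophages and -1.01 in monocytes, against -0.47 and -0.36 with isotype antibody. Lyz1 had 4.61 in macrophages and 1.23 in cluster 4, and the lowest adjusted interaction p of these 4 genes was 0.828. Tgm2 in monocytes had -0.55 under anti-PD-1, Cd163 in macrophages -3.79 and Ifng in CD8 T cells -1.17, beside -0.88, -2.59 and -1.14 with isotype antibody.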

How the data were processed

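Cells of 16 mice were measured in 2 pools, and the 8 isotype mice are compared here; the labels describe separate mice. The deposited matrices hold raw counts, whole numbers of UMIs per gene and of tags per antibody, which the authors made from 10x 3′ v3.1 libraries. Per the submitters' processing notes this was done with Cell Ranger 3.0.1 on mm10, whereas the file headers name version 6.1.2. The labels state 89 antibodies and the files hold 88, with 32285 genes. Members, gene lists and tests were chosen with earlier results of these data known.

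Barcodes were assigned by the hashtag rule and clustered with scanpy 1.11.5 and leidenalg 0.10.2 (resolution 1, 2000 variable genes, 30 components, 15 neighbours). The glucocorticoid response list, Nr3c1, Lyz1 and Lyz2 were left out of clustering. Doublets were removed only through the hashtag rule, which keeps pairs of cells of 1 mouse. Counts were summed per mouse and class (at least 20 cells) and tested with edgeR 4.0.16 (TMM, filterByExpr, pool as covariate) in R 4.3.3, adjusting over all genes, or over all antibodies with at least 100 counts. The scripts were tested on simulated data. The pools shared 805 barcodes. Pooling 8 mice in a library, and depths of 7062757 to 41154747 gene UMIs per mouse, limit low genes and small classes. Intervals for 0 counts were not used.

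Named in each class were Nr3c1, Lyz1, Lyz2, genes past adjusted p 0.05 with at least 10 CPM (up to 25) and, where under 10 passed, up to 10 genes and 5 proteins of smallest p with no overlap between mice. Up to 4 members of a described list, of smallest p, were named too. Gene coordinates come from the annotation of GRCm38. Alternatives were DESeq2 1.42.0, RLE scaling, no count filter, no pool term, at least 50 cells, at most 5% mitochondrial UMIs, a 90% hashtag share, HTODemux (Seurat 5.3.0) and leaving out each mouse. Added after seeing the data were single clusters, Nr3c1 within a mouse and cells of high Scrublet score. The result of 1 gene is not reported here.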

Additional observations from a re-analysis of the deposited data

Results flagged for a closer look

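Of 261 groups of 4 mice examined, 20 had 1 mouse set apart from the other 3 by more than Dixon's 95% limit for 4 values, which chance alone gives in about 1 of 20 groups. The ranges in parentheses are those of the other 3 mice.

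Among floxed mice, the share of cluster 15 was 2.19% in mouse 3 (3.51% to 3.54%). Nr3c1 in cluster 4 was 75.0 CPM in mouse 4 (49.6 to 53.1), Lyz2 in monocytes 11246 CPM in mouse 2 (7998 to 8544) and Hspa1b in cDC2 628 CPM in mouse 4 (142 to 187). Slc9b2 in macrophages was 0.440 CPM in mouse 1 (4.45 to 5.04), Klf3 in CD8 T cells 12.2 CPM in mouse 2 (17.4 to 18.4) and Maf in regulatory T cells 993 CPM in mouse 1 (1099 to 1119). The SiglecF antibody on macrophages gave 3712 antibody CPM in mouse 2 (1502 to 1715).

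Among LysM-Cre mice, regulatory T cells made up 7.85% of cells in mouse 1 (5.01% to 5.46%). Lyz1 stood out in mouse 1 both in macrophages, at 447 CPM (16.4 to 40.03), and in cluster 4, at 365 CPM (41.6 to 92.3). Nr3c1 in regulatory T cells was 155 CPM in mouse 4 (127 to 130), Lyz2 in cluster 4 10136 CPM in mouse 4 (3192 to 3975) and Cd163 in macrophages 10.4 CPM in mouse 4 (0.889 to 1.54). Hspa1b was 86.2 CPM in macrophages of mouse 3 (12.8 to 19.5) and 23.5 CPM in regulatory T cells of mouse 4 (13.5 to 14.8), and Hspa1a was 11.8 CPM in cluster 10 of mouse 2 (49.4 to 52.6). Cd274 in CD4 T cells was 38.4 CPM in mouse 2 (22.6 to 23.6), Tsc22d3 in fibroblasts 246 CPM in mouse 3 (32.6 to 57.8) and Rrm2 in NK cells 94.2 CPM in mouse 1 (37.8 to 40.6).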

How the results depend on the processing

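The spread over 4 mice per genotype limits every result, and leaving out 1 mouse made or ended calls. Without the filter on low counts the tests called 45 genes in CD4 T cells, 54 in CD8 T, 48 in NK, 33 in cDC2, 8 in cluster 10, 85 in cluster 15, 53 in cluster 4, 273 in fibroblasts, 88 in macrophages, 125 in monocytes, 14 in neutrophils and 60 in regulatory T cells. Of these genes 25, 43, 44, 28, 7, 65, 40, 236, 76, 104, 10 and 46, in the same order, had also been tested with the filter. Most calls were thus not of genes that the filter removes. The number of genes tested without the filter is not given, so these counts have no share beside them. DESeq2 called 1 gene in CD8 T, 1 in NK, 0 in cluster 10, 1 in cluster 15, 2 in cluster 4, 2 in fibroblasts, 2 in macrophages, 34 in monocytes and 3 in regulatory T cells, and 3 interaction genes in neutrophils. Without cells of high Scrublet score the counts were 1 in CD8 T, 1 in cluster 4, 1 in monocytes and 12 in regulatory T cells. HTODemux and the 90% hashtag share each gave 1 in cluster 4, 1 in monocytes and 0 in regulatory T cells, and the 90% share gave 1 macrophage protein. At most 5% mitochondrial UMIs gave 0 in cluster 10 and 1 in monocytes, no pool term gave 0 in cluster 10 and 0 in regulatory T cells, and at least 50 cells gave 0 in regulatory T cells. The causes were not tested.

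Leaving out single mice gave 0 to 30 genes in CD4 T cells, 0 to 2 in CD8 T, 0 to 17 in NK, 0 to 1 in cDC2, 0 to 7 in cluster 10, 0 to 1 in cluster 4, 0 to 1 in monocytes, 0 to 3 in regulatory T cells and 0 in the other classes. It gave 0 to 1 proteins in CD8 T cells, fibroblasts and macrophages, and 0 to 1 interaction genes in cluster 15 and neutrophils. The counts of 30, 17 and 7 were all without LysM-Cre mouse 2.

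Some signs turned. Nr3c1 in cluster 10 (-0.00) was 0.026 with DESeq2, 0.059 with HTODemux, 0.027 at 5% mitochondrial UMIs, 0.017 without high Scrublet scores, 0.0056 without the pool term and 0.028 at the 90% share. Nr3c1 in fibroblasts was 0.081 without high Scrublet scores. Lyz2 in neutrophils was -0.012 with HTODemux, -0.069 without high Scrublet scores and -0.056 at the 90% share. Tsc22d3 in macrophages was -0.16 with HTODemux and -0.11 at the 90% share. The CD8 T cell difference was -0.784 percentage points as a share of named immune classes. With single mice left out, Nr3c1 ranged from -0.054 to 0.13 in CD8 T cells, -0.24 to 0.20 in cluster 10 and -0.97 to 0.077 in cluster 15. Lyz2 ranged from -0.65 to 0.026 in cluster 4 and -0.48 to 0.35 in neutrophils, and Tsc22d3 from -0.040 to 0.24 in monocytes and -0.053 to 0.30 in macrophages. The share difference ranged from -1.46 to 2.07 points for CD8 T cells, -7.15 to 0.432 for monocytes and -2.54 to 3.55 for neutrophils.

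Scrublet's own threshold marked 0 cells, so the planned removal was not run and a score limit was chosen after seeing the data. The 50-cell minimum could not be fitted in CD4 T cells, cDC2, clusters 10 and 15, nor a model of all 16 mice in cDC2, cluster 10 and regulatory T cells. No paired analysis was possible because the mouse numbers name hashtags and do not link a floxed to a LysM-Cre mouse.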
